A study of Rattus norvegicus with 6 samples.

Results

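Chloride channels, anoctamins and their relatives were compared between the 2 mural cell types of the rat cortex. The genes were taken by symbol (Ano, Clcn, Clic, Clca, Clns1a, Best, Cftr, Lrrc8, Ttyh, Tmc and Bsnd), and 32 of the 14607 genes listed are described. They comprised 5 anoctamins, 6 CLC channels and exchangers, 6 CLIC proteins, 4 LRRC8 subunits, 3 tweety homologues, 2 bestrophins, 4 TMC proteins, and Clns1a and Cftr. RefSeq held 19 further protein-coding symbols of these families, among them Ano2, Ano5, Clcn4, Best2, Lrrc8e, Bsnd and the Clca genes, which were not analysed here. Genes without a read in every sample had been left out by the authors.

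Messenger RNA had been sequenced from 3 samples of vascular smooth muscle cells (VSMCs) and 3 samples of mid-capillary pericytes (mcPCs), all freshly isolated from the brain cortex of male Sprague-Dawley rats aged 4 to 5 weeks. Each isolation pooled several animals. VSMCs were sorted positively with a lectin from arterioles held back on a filter, after removal of CD31+ and CD11b+ cells. The mcPCs were what remained of the filtrate once cells bearing endothelial, microglial, astrocytic and oligodendrocytic surface antigens had been removed, so no antigen of their own selected them. The deposited table held 1 mean for VSMCs and 1 for mcPCs, with no value per sample. No spread between samples could therefore be computed and no difference was tested. Intervals below are 95% exact binomial intervals on the reads of both cell types, and they cover counting error only.

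Chloride channels let the anion pass along its gradient. In vascular smooth muscle, chloride is held above its equilibrium by cotransport, so that opening a chloride channel depolarises the cell and favours calcium entry and contraction. Ano1 is the classical calcium-activated chloride channel of contractile cells, whereas its relative Ano6 is best known as a calcium-activated lipid scramblase. LRRC8 proteins assemble into the volume-regulated anion channel, in which Lrrc8a is the obligatory subunit. Several CLC proteins are proton-coupled exchangers of endosomes and lysosomes. CLIC proteins exist largely in soluble form, and the channel function of CLIC, tweety and TMC proteins is disputed or belongs to other ions.

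Clic4, an actin-associated CLIC protein, was the most abundant of these transcripts in VSMCs and Lrrc8a in mcPCs. Clic4 stood at 340.2 TPM (transcripts per 1e6 transcripts, a level corrected for length) in VSMCs and 14.9 TPM in mcPCs. On mean normalized counts, the scale used here for ratios, it was 6.61-fold higher in VSMCs (counting interval 6.38 to 6.86). Lrrc8a stood at 36.3 TPM in VSMCs against 51.7 TPM in mcPCs, and its normalized count was 5.06-fold higher in mcPCs (4.96 to 5.16). Of the 32 genes, 15 reached 2-fold in favour of mcPCs, against 22.0% of all genes listed, and 3 in favour of VSMCs, against 13.9%. The other 14 lay within 2-fold, against 9363 of all 14607 genes. On the TPM as deposited, 8 genes reached 2-fold in favour of mcPCs, against 8.17% of all genes, and 17 in favour of VSMCs, against 74.8%. The median log2 ratio of mcPCs over VSMCs was 0.60 for these genes and 0.01 for all genes.

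Erythrocyte and hemoglobin transcripts took 66.9% of the mcPC TPM and 0.878% of the VSMC TPM. Of 12 erythrocyte genes listed, 11 were at least 2-fold higher in mcPCs, against 22.0% of all genes. The median gene of the table had a log2 TPM ratio of -1.79, so the TPM of most genes was lower in mcPCs. Levels were compared between genes of the same cell type in TPM, and ratios between cell types were read from normalized counts. In bulk samples, fewer cells of a type and less RNA per cell cannot be told apart. The labels were checked against marker genes. All 8 smooth muscle markers were at least 2-fold higher in VSMCs, against 13.9% of all genes, with a median log2 ratio of -7.91. In mcPCs, 7 of 9 pericyte markers were at least 2-fold higher, against 22.0%. Assigned reads, in units of 1e6, averaged 62.0 per VSMC sample and 48.0 per mcPC sample.

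The promoters of 5 abundant genes are shown, chosen after their values were seen, as the genes with the largest TPM of the anoctamins, CLIC proteins, LRRC8 subunits and tweety homologues in at least 1 cell type. Clic1, which leads its family in mcPCs, had no window at hand, and leading genes of the other families are not shown. Each window holds 250 bases before and 50 bases after the start of the gene, from RefSeq on GRCr8, another assembly than the Rnor_6.0 of the counts. Windows were at hand for 26 of the 32 genes. Capitals mark the GC box core GGGCGG (printed as CCGCCC when it lies on the other strand), the CCAAT box, the E-box core CACGTG and the palindromic cyclic AMP response element TGACGTCA, on either strand. The TATA box TATAAA and the CArG box were searched in the same way and have no match in these 5 windows.
Clic4 (chr5:152797069-152797368, minus strand): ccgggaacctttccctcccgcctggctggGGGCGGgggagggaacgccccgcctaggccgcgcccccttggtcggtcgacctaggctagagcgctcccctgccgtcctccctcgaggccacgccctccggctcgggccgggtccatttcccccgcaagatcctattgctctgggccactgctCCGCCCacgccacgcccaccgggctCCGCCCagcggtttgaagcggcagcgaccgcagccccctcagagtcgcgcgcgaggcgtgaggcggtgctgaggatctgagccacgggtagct
Ano6 (chr7:128812881-128813180, plus strand): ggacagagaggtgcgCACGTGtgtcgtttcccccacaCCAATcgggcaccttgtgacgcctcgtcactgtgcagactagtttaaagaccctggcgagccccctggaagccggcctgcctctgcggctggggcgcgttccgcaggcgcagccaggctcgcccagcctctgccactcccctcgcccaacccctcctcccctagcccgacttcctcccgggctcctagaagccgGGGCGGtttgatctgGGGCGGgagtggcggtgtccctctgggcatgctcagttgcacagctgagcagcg
Ano1 (chr1:209329289-209329588, minus strand): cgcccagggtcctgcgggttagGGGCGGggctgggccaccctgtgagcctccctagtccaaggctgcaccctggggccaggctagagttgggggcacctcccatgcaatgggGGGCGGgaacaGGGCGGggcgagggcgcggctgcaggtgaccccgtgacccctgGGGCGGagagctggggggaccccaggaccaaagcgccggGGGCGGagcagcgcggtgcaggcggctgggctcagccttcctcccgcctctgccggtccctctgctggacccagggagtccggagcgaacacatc
Lrrc8a (chr3:33908086-33908385, plus strand): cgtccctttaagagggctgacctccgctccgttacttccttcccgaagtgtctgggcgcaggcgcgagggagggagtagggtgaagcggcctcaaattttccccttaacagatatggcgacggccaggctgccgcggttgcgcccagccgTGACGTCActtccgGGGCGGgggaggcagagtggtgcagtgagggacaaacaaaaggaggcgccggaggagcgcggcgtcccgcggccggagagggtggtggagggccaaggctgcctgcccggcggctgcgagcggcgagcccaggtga
Ttyh2 (chr10:100207879-100208178, plus strand): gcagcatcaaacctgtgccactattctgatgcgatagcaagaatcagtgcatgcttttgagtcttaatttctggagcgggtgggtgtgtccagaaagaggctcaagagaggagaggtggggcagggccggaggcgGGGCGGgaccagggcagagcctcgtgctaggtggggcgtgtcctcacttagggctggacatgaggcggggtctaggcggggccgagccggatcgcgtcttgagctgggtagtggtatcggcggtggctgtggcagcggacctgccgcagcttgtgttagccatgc
All 5 windows hold GGGCGG, 5 times in Ano1, 3 times in Clic4, 2 times in Ano6 and once each in Lrrc8a and Ttyh2. It was found in 19 of the 32 windows of the 26 genes, belonging to 18 genes, and in 33.1% of the 33469 promoter windows of the rat. Each other motif lay in as many of the 32 windows as genes. The CCAAT box and the E-box core occur once each in the window of Ano6, and TGACGTCA once in that of Lrrc8a. CACGTG lay in windows of 6 genes (Ano6, Clcn6, Clcn7, Clns1a, Tmc6 and Tmc8) and in 6.42% of all windows, and TGACGTCA in windows of 2 genes (Clcn3 and Lrrc8a) and in 1.83% of all windows. The CCAAT box was held by windows of 8 genes and 37.5% of all windows, and TATAAA by windows of 2 genes (Clcn1 and Clcn7) and 14.2% of all windows. The CArG box bound by serum response factor, of which many smooth muscle promoters hold copies, was found in no window of these genes and in 1.64% of all windows.

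**Figure D1:**
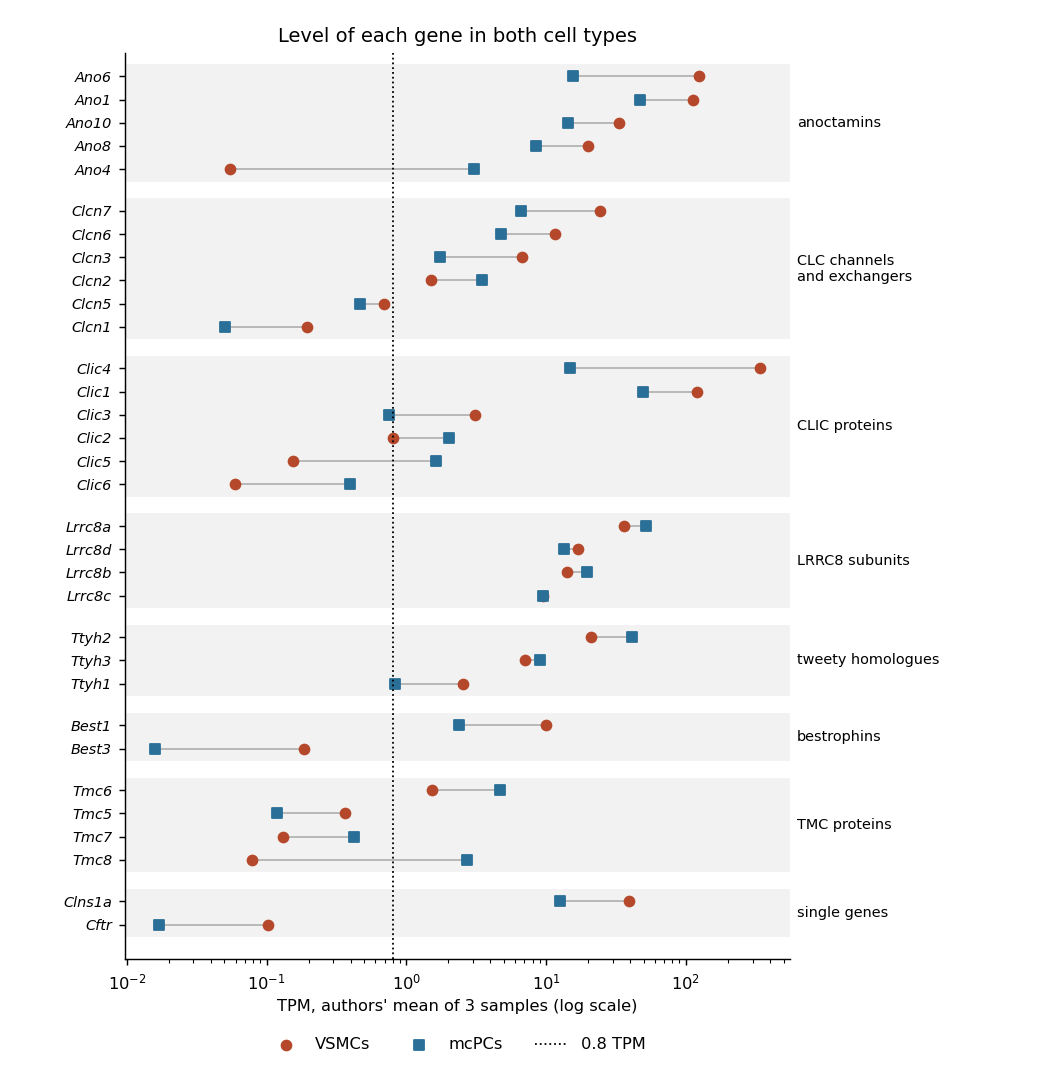
Mean TPM of each of the 32 genes in VSMCs (circles) and mcPCs (squares) on a log scale, grouped by family, with the 0.8 TPM limit dotted. Clic4 reaches 340.2 TPM in VSMCs against 14.9 TPM in mcPCs, while Lrrc8a is the highest gene of mcPCs at 51.7 TPM.

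In VSMCs the highest levels after Clic4 were those of Ano6 at 123 TPM, Clic1 at 120.1 TPM, Ano1 at 112 TPM and Clns1a at 39.2 TPM. In mcPCs Lrrc8a was followed by Clic1 at 49.3 TPM, Ano1 at 47.0 TPM, Ttyh2 at 40.9 TPM and Lrrc8b at 19.7 TPM. Clic1 and Ano1 were thus among the 4 highest in both cell types. Without values per sample, it is not known whether neighbours in these orders, such as Ano6 and Clic1 in VSMCs, differ beyond the spread between samples. The limit of 0.8 TPM, which the study applied to VSMCs, was reached by 22 of the 32 genes in VSMCs and 24 in mcPCs, against 83.6% and 78.3% of all genes, and 21 reached it in both. CLIC proteins made up 48.5% of the summed TPM of the 32 genes in VSMCs and 20.1% in mcPCs. LRRC8 subunits made up 8.02% and 27.6%, and tweety homologues 3.20% and 14.8%. The anoctamins held 30.2% and 25.8%.

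Among the anoctamins, Ano6 was higher in VSMCs and Ano4 in mcPCs. The other 3 lay within 2-fold, as did 9363 of all 14607 genes. Ano6 stood at 123 TPM in VSMCs against 15.5 TPM in mcPCs, and its normalized count was 2.24-fold higher in VSMCs (2.21 to 2.28), close to the 2-fold limit. On estimated counts scaled without the erythrocyte list its log2 ratio of -1.17 became -1.11, and -0.93 when all hemoglobin genes were left out too, a step that moves all genes alike. Ano1 stood at 112 TPM and 47.0 TPM, with mean normalized counts of 14032 in VSMCs and 20981 in mcPCs, a log2 ratio of 0.58 (0.56 to 0.60). It lay above 90.7% of all genes in VSMCs and above 94.9% in mcPCs, so the calcium-activated chloride channel was an abundant transcript of both cell types. The TPM of Ano1 was 0.908 times that of Ano6 in VSMCs and 3.03 times in mcPCs. Such ratios within a cell type do not depend on how the cell types are scaled to each other.

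Ano10, a protein of endoplasmic reticulum and endosomes whose loss causes ataxia, had 33.2 TPM in VSMCs against 14.3 TPM in mcPCs, with a log2 ratio of 0.61. Ano8, which tethers endoplasmic reticulum to the plasma membrane, had 20.1 TPM and 8.52 TPM and a log2 ratio of 0.55. Ano1, Ano8 and Ano10 thus had log2 ratios between 0.55 and 0.61. Ano4 was nearly absent from VSMCs, at 0.0547 TPM and 23 reads over all 3 samples, and stood at 3.05 TPM with 2515 reads in mcPCs. Its ratio was the largest of the 32 genes, 200.0-fold (133 to 316), and rests on the few VSMC reads.

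The leading gene of the CLIC family was Clic4 in VSMCs and Clic1 in mcPCs. Clic4 made up 73.3% of the family's TPM in VSMCs against 21.5% in mcPCs, and Clic1 25.9% and 71.5%. Clic4 was thus at 2.83 times the TPM of Clic1 in VSMCs, and Clic1 at 3.32 times that of Clic4 in mcPCs. Clic1, found in the nucleus and cytosol of most cells, lay within 2-fold on normalized counts, with a log2 ratio of 0.52 (0.49 to 0.56). Clic4 lay above 96.9% of all genes in VSMCs and above 83.1% in mcPCs, so it remained a readily detected transcript of mcPCs.

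The 4 rarer CLIC genes lay at or below 3.11 TPM in both cell types. Clic5, a partner of ezrin at the cell cortex, had 0.153 TPM in VSMCs against 1.63 TPM in mcPCs, and its normalized count was 38.7-fold higher in mcPCs (30.2 to 50.0). Clic2, a binding partner of ryanodine receptors, had 0.805 TPM and 2.03 TPM and was 8.83-fold higher in mcPCs. Clic6, a secretory-cell member abundant in choroid plexus, stayed below 0.8 TPM in both, at 0.0594 TPM and 0.392 TPM. Its normalized count was 23.0-fold higher in mcPCs, from 19 reads in VSMCs and 281 in mcPCs. Clic3 had 3.11 TPM in VSMCs against 0.756 TPM in mcPCs and a log2 ratio of -0.22.

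**Figure D2:**
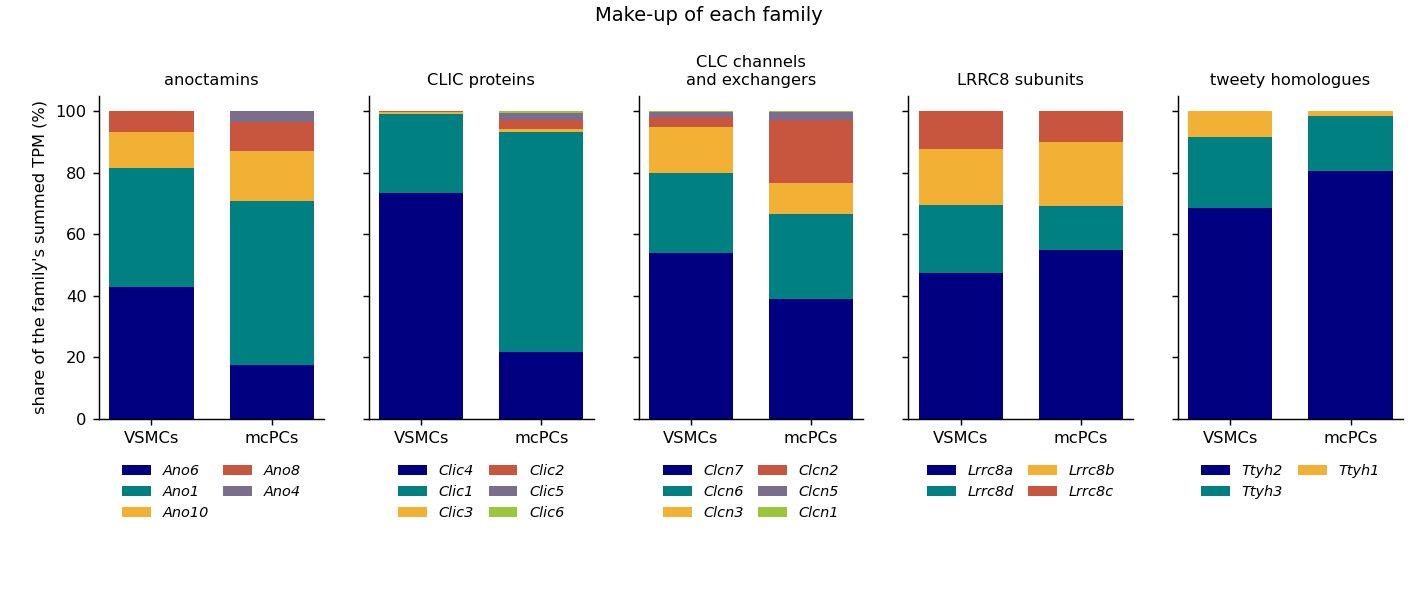
Share of each gene in the summed TPM of its family in percent, as stacked bars for VSMCs and mcPCs in 5 families. Clic4 takes 73.3% of the CLIC family in VSMCs and 21.5% in mcPCs, while the LRRC8 bars differ little, with Lrrc8a at 47.3% and 54.7%.

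All 4 LRRC8 subunits listed were over 2-fold higher in mcPCs on normalized counts, against 22.0% of all genes. On TPM as deposited, however, Lrrc8d had a log2 ratio of -0.32, beside -1.79 for the median gene. The obligatory subunit Lrrc8a was 5.06-fold higher, Lrrc8b 4.95-fold, Lrrc8c 3.59-fold and Lrrc8d 2.85-fold. Lrrc8c and Lrrc8d are the subunits known to set the channel's conductance and its permeability to organic osmolytes. Lrrc8b stood at 14.1 TPM in VSMCs against 19.7 TPM in mcPCs, Lrrc8c at 9.44 TPM and 9.55 TPM, and Lrrc8d at 16.9 TPM and 13.5 TPM. In VSMCs Lrrc8d therefore ranked above Lrrc8b, and in mcPCs below it.

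Lrrc8a lay above 74.0% of all genes in VSMCs and above 95.5% in mcPCs, a comparison within each cell type. The percentile of Lrrc8b was 52.4 in VSMCs and 87.2 in mcPCs. Within the family, Lrrc8a held 47.3% of the TPM in VSMCs against 54.7% in mcPCs, and Lrrc8d 22.0% and 14.3%. The TPM of Lrrc8a was 0.897 times the sum of the other 3 subunits in VSMCs and 1.21 times in mcPCs. On GRCr8, Lrrc8d, Lrrc8c and Lrrc8b are neighbours on chromosome 14 with 0 other protein-coding genes between them, whereas Lrrc8a lies on chromosome 3.

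Ttyh2 and Ttyh3, of the tweety homologues, were also higher in mcPCs. These membrane proteins were first described as large-conductance chloride channels, a function that is still debated. Ttyh2 stood at 21.0 TPM in VSMCs against 40.9 TPM in mcPCs, and its normalized count was 6.95-fold higher in mcPCs (6.76 to 7.14). Ttyh3 stood at 7.08 TPM and 8.99 TPM and was 4.44-fold higher. Ttyh1, a member prominent in neural cells, had 2.56 TPM in VSMCs against 0.833 TPM in mcPCs and a log2 ratio of 0.19. The percentile of Ttyh2 among all genes was 61.5 in VSMCs and 94.0 in mcPCs.

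In the CLC family, 4 of 6 genes lay within 2-fold, against 9363 of the 14607 genes listed. Clcn7, the lysosomal exchanger, was its most abundant gene in both cell types, at 24.2 TPM in VSMCs against 6.63 TPM in mcPCs, and its log2 ratio was -0.07. Ostm1, the subunit that stabilises it, was named after its values were seen. The TPM of Clcn7 was 1.29 times that of Ostm1 in VSMCs and 0.826 times in mcPCs. Clcn6, an exchanger of late endosomes, had 11.6 TPM and 4.75 TPM and a log2 ratio of 0.53. Clcn3, another endosomal exchanger, had 6.68 TPM and 1.73 TPM and a log2 ratio of -0.14. These 3 intracellular exchangers therefore lay within 2-fold of the median gene.

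Clcn2, a chloride channel of the plasma membrane that opens on hyperpolarisation, was 7.68-fold higher in mcPCs (6.96 to 8.47), from 1.50 TPM in VSMCs against 3.49 TPM in mcPCs. It held 3.35% of the CLC family's TPM in VSMCs against 20.4% in mcPCs. Clcn5, the endosomal exchanger mutated in Dent disease, was 2.35-fold higher in mcPCs, with a counting interval of 1.96 to 2.83 that reached below 2-fold, and its levels were 0.692 TPM and 0.463 TPM.

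Best1, a calcium-activated chloride channel, had 9.91 TPM in VSMCs against 2.39 TPM in mcPCs, and a log2 ratio of -0.20. Best3 was 3.31-fold higher in VSMCs with a wide counting interval of 1.63 to 7.60, at 0.185 TPM in VSMCs against 0.0159 TPM in mcPCs, from 59.3 and 9.04 estimated reads. With a pseudocount of 10 normalized counts its log2 ratio of -1.73 became -0.78, within 2-fold. Clns1a, whose product pICln works mainly in the assembly of spliceosomal particles, had 39.2 TPM and 12.5 TPM and a log2 ratio of 0.16. It lay above 75.6% of all genes in VSMCs and above 80.1% in mcPCs.

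TMC proteins are distant relatives of the anoctamins. Of the 4 listed, 3 were at least 2-fold higher in mcPCs, against 22.0% of all genes. Tmc6 had 1.53 TPM in VSMCs against 4.65 TPM in mcPCs, and a log2 ratio of 3.38 (3.23 to 3.54). Tmc8 had 0.0788 TPM and 2.70 TPM, from 24 and 1446 reads, and was 117-fold higher in mcPCs (78.3 to 183). Tmc6 and Tmc8 encode partners in a complex with a zinc transporter and are known from lymphocytes and keratinocytes. They are adjacent on chromosome 10 of GRCr8. Tmc7 had 0.132 TPM and 0.423 TPM and was 11.0-fold higher in mcPCs.

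The 7 genes below 0.8 TPM in both cell types were Clcn1, Clcn5, Clic6, Tmc5, Tmc7, Best3 and Cftr. They ranged from 0.0594 to 0.692 TPM in VSMCs and from 0.0159 to 0.463 TPM in mcPCs. Clcn1, the skeletal muscle channel, Cftr, the channel mutated in cystic fibrosis, and Tmc5 were the 3 of them within 2-fold, with log2 ratios from -0.70 to 0.18. Of the 15 genes at least 2-fold higher in mcPCs, 6 were below 0.8 TPM in VSMCs. These were Ano4, Tmc8, Clic5, Clic6, Tmc7 and Clcn5, whose ratios rest on 19 to 219 VSMC reads. The study left genes below that limit out of its final dataset, as endothelial transcripts were higher in mcPCs. Of the 15 genes, the 4 with at least 10 TPM in mcPCs were Lrrc8a, Lrrc8b, Lrrc8d and Ttyh2. These 4 also had at least 10 TPM in VSMCs, so both cell types carried them.

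**Figure D3:**
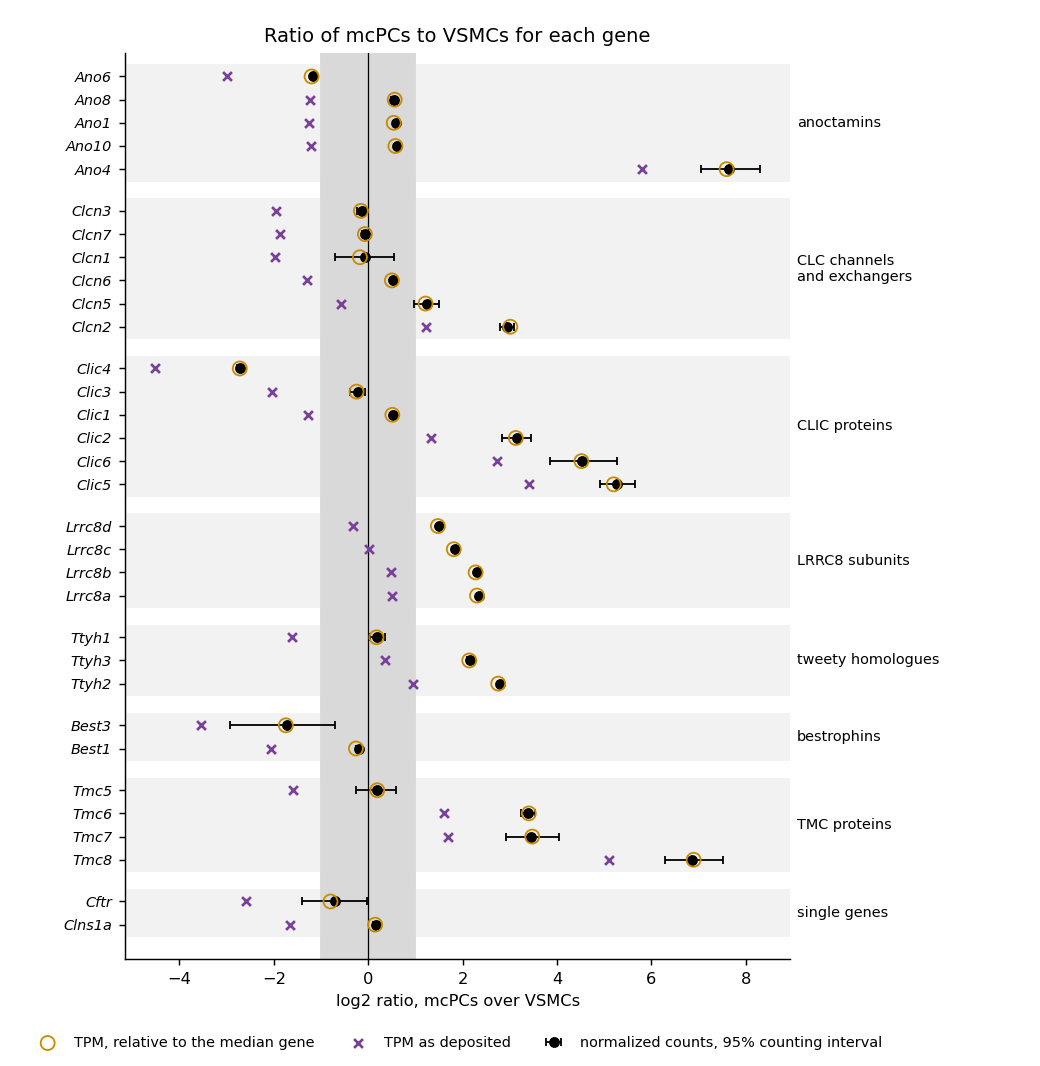
Log2 ratio of mcPCs over VSMCs for each gene by family: black points are mean normalized counts with 95% counting intervals, open circles TPM ratios relative to the median gene, and crosses TPM ratios as deposited. Grey marks ratios within 2-fold, and Lrrc8d has its point at 1.51 and its cross at -0.32.

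**Figure D4:**
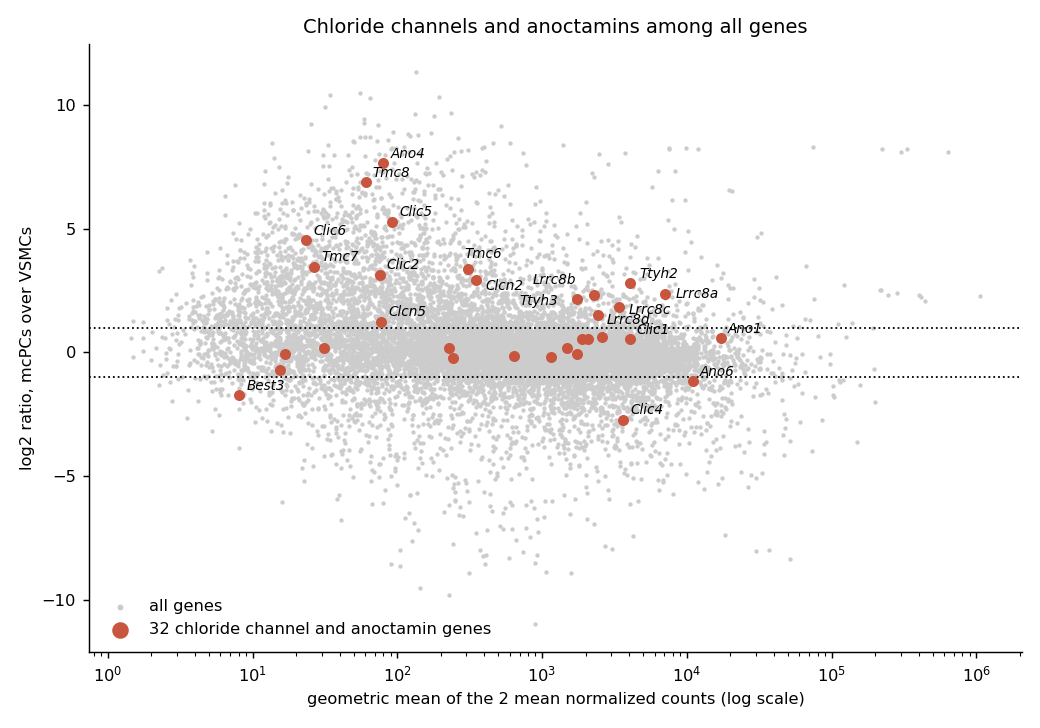
Log2 ratio of mcPCs over VSMCs against the geometric mean of both mean normalized counts (log axis) for the genes of the table in grey and the 32 genes in red, with dotted lines at 2-fold. Ano4 and Tmc8 lie at 7.64 and 6.87 among genes of low counts, and Lrrc8a at 2.34 among genes of high counts.

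The mean effective length, the transcript length available to reads as weighted by the transcripts that Salmon found, differed by over 5% between the cell types for 5 of the 32 genes, against 8.06% of all genes. It was 4483 bases in VSMCs and 4766 bases in mcPCs for Ano6, 3919 and 4214 bases for Ttyh3, and 2715 and 2918 bases for Clcn2. Clic6 had 2603 and 3039 bases, and Clic5 3864 bases in VSMCs and 3119 bases in mcPCs. Clic5 alone of these 5 was shorter in mcPCs. The VSMC lengths of Clic6 and Clic5 rest on only 19 and 67.7 estimated reads. Transcripts were not resolved in the table, and 22 of the 32 genes had the same length within 0.1 base, against 10799 of all 14607 genes.

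Markers of other cells were also higher in mcPCs, and several of these genes are known from such cells. Of 12 endothelial markers listed, 9 were at least 2-fold higher in mcPCs. Of all genes, 22.0% were so, but only 13.1% of those with at least 0.8 TPM in VSMCs. The share was thus larger among genes of low level in VSMCs. In VSMCs, 3 of the 12 endothelial and 0 of the 6 microglial and macrophage markers reached 0.8 TPM. Cldn5, the tight junction claudin of the blood-brain barrier, had 0.643 TPM in VSMCs against 15.4 TPM in mcPCs. The summed level of the list was 613 TPM and 238 TPM, mostly Esam and Slc2a1. On normalized counts, the log2 ratio of Esam was 0.43 and that of Slc2a1 -0.50. TPM sums, here and below, stand beside a log2 TPM ratio of -1.79 for the median gene and do not compare the cell types. All 6 microglial and macrophage markers listed were higher, with a summed level of 0.893 TPM and 12.4 TPM. The pan-leukocyte gene Ptprc had 0.0659 TPM and 15.1 TPM, and S100a9 was the only other gene of its list of 12 with a value. Of 6 astrocyte markers 5 were higher (sum 14.4 TPM and 20.4 TPM), of 7 oligodendrocyte lineage markers 6 (7.32 TPM and 9.38 TPM), and of 5 neuron markers 4 (363 TPM and 31.4 TPM, mostly Nrgn in VSMCs). Fibroblast markers were higher in 5 of 6 cases, with sums of 142 TPM and 190.1 TPM, mostly Col1a1 in VSMCs (114 TPM) and Slc6a13 in mcPCs (131.9 TPM). Of the ependymal and choroid plexus list only Ccdc153 and Clic6 itself were listed. No listed marker is at 0, as genes without reads in a sample had been left out, and the endothelial marker Pecam1 was not analysed here. The levels of Ano4, Tmc6, Tmc8, Clic2, Clic5 and Clcn2 in mcPCs, 1.63 to 4.65 TPM, lie below the 15.1 TPM of Ptprc and the 15.4 TPM of Cldn5. The part of such cells in them was not tested. Ptprc and Cldn5 were the highest of their lists among markers past 2-fold. The other such endothelial markers had 0.281 to 2.76 TPM in mcPCs, and the microglial and macrophage markers 0.408 to 3.94 TPM. On other lists, the astrocyte marker Slc1a3 had 12.7 TPM there and the neuron marker Tubb3 15.7 TPM. Of the 15 genes at least 2-fold higher in mcPCs, Lrrc8a, Lrrc8b and Ttyh2 lay above both Ptprc and Cldn5 in mcPCs. The other 12 lay below both, at 0.392 to 13.5 TPM. All 15 lay below Slc6a13 of the fibroblast list and the erythrocyte gene Slc4a1, at 131.9 TPM and 89.4 TPM in mcPCs. The level of a marker sets no bound on other genes of the same cells, and the part of such cells was not tested for any of the 15.

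The other genes of chloride and calcium handling came from lists by function. Of 27 chloride cotransporters, anion exchangers and their kinases, 22 were listed, with a median log2 ratio of -0.08. Among these, 4 were at least 2-fold higher in mcPCs, against 22.0% of all genes, and 3 in VSMCs, against 13.9%. Slc4a1, the erythrocyte anion exchanger and itself on the erythrocyte list, had 1.25 TPM in VSMCs against 89.4 TPM in mcPCs. Slc4a3, the anion exchanger AE3 of excitable cells, had 68.7 TPM and 0.847 TPM, a log2 ratio of -4.56. Slc12a8 had 4.09 TPM and 17.5 TPM (log2 ratio 3.94), and Oxsr1, a kinase that activates the sodium-potassium-chloride cotransporter, 63.7 TPM and 5.31 TPM (-1.80). That cotransporter, Slc12a2, was named after its values were seen, with 38.0 TPM in VSMCs against 35.6 TPM in mcPCs and a log2 ratio of 1.73.

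Genes of calcium entry, release and storage, the handling upstream of Ano1, were more often higher in VSMCs than in mcPCs. Of 19 genes listed, 10 were at least 2-fold higher in VSMCs, against 13.9% of all genes, and 3 in mcPCs, against 22.0%. Their median log2 ratio was -1.05. The ryanodine receptor Ryr2 had 1.93 TPM in VSMCs against 0.0368 TPM in mcPCs, the receptor-operated channel Trpc6 4.28 TPM and 0.0931 TPM, and the sarcoplasmic calcium pump Atp2a2 1089 TPM and 30.8 TPM. Itpr3, an inositol trisphosphate receptor, had 0.478 TPM and 1.40 TPM and a log2 ratio of 3.30. The far more abundant Itpr1, named after its values were seen, had 140 TPM in VSMCs against 5.51 TPM in mcPCs and a log2 ratio of -2.85. Ano1 itself had a log2 ratio of 0.58.

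Channel partners, other anion channels and scramblases were listed for 14 of 16 genes, with a median log2 ratio of 0.47. Of them, 5 were at least 2-fold higher in mcPCs, against 22.0% of all genes, and 0 in VSMCs, against 13.9%. Slco2a1, a prostaglandin transporter and core of the maxi-anion channel, had 0.335 TPM and 1.33 TPM (3.83). Tmem206, the proton-activated chloride channel, had 4.41 TPM and 3.98 TPM (1.69), and the phospholipid scramblase Plscr1 91.9 TPM and 53.8 TPM (1.04). GABA-A and glycine receptor subunits, the ligand-gated chloride channels, were listed for 6 of 24 genes. At least 2-fold higher in mcPCs were 5 of them, against 22.0% of all genes, but none reached 0.8 TPM in either cell type.

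**Figure D5:**
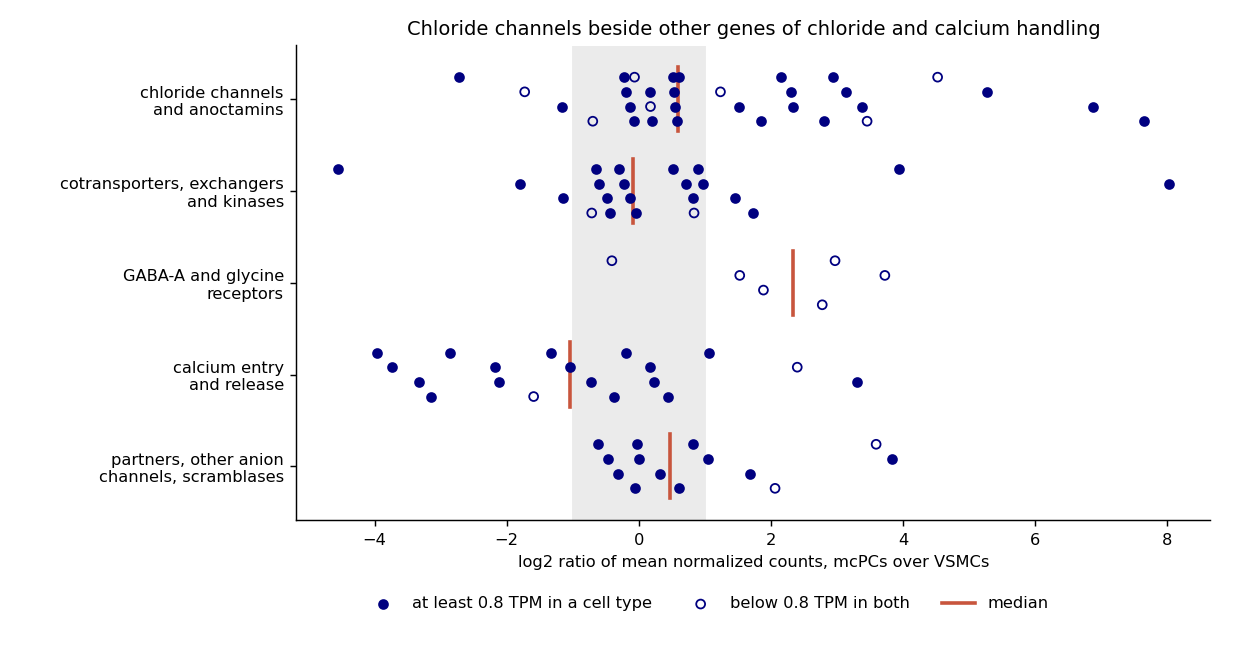
Log2 ratio of mean normalized counts, mcPCs over VSMCs, for each of the 32 genes and for 4 lists of related genes, filled where a gene reached 0.8 TPM in a cell type, with red lines at the medians. The median is 0.60 for the chloride channels and anoctamins and -1.05 for calcium entry and release.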

How the data were processed

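RNA-Seq was performed by the authors on 3 VSMC and 3 mcPC samples, with polyA+ RNA, a strand-specific TruSeq kit and 4 sequencing runs per library. They estimated abundances with Salmon 0.8.0 on Ensembl transcripts of Rnor_6.0, summed them per gene and normalized with DESeq2. The deposited TPM values are the authors' mean abundances of each cell type. The deposited estimated counts are the authors' mean over runs, since 64.4% (VSMCs) and 67.2% (mcPCs) are whole multiples of 1 read over 12 runs (tolerance 0.001 read), and were multiplied by 12 to give reads per cell type. The normalized counts are signal values that the authors computed with DESeq2's normalization. Effective lengths were deposited as means too. The table also holds the authors' overall mean and their own comparison (fold change, standard error, p-value and adjusted p-value), which was not used.

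Ratios are mcPCs over VSMCs of the mean normalized counts with a pseudocount of 0, set against 2-fold. No count model could be fitted to means. Counting intervals are exact binomial (Clopper-Pearson, 95%) on the reads, shifted to the scale of the normalized counts. Reads of PCR copies are not independent molecules. The labels DN, DL and DK were taken as names only. The genes and the lists were chosen with earlier results of these data known. Named with values are all of the 32 genes with at least 0.8 TPM in either cell type or past 2-fold, and of each list up to 4 genes with the largest ratios among those past 2-fold that reached 0.8 TPM. Alternatives changed the scale, the pseudocount, the filter, the threshold and the genes taken. RefSeq symbols were matched for 32 of 32 genes. A further gene taken by symbol is not reported here. Marker lists were matched by symbol. All steps were run in scipy 1.17.1, pandas 2.3.3, numpy 2.4.6 and matplotlib 3.10.9 under Python 3.11.15.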

Additional observations from a re-analysis of the deposited data

How the results depend on the processing

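No paired analysis was possible because the table holds the mean of each cell type and no value per sample. For the same reason no replicate was left out in turn. Of 15 genes at least 2-fold higher in mcPCs and 3 in VSMCs, the TPM ratios as deposited gave 8 and 17, with a median log2 ratio of -1.23. Of the genes past 2-fold, Lrrc8d (-0.32) and Clcn5 (-0.58) turned direction. Genes within 2-fold changed sign too, such as Ano1 (-1.25), Clic1 (-1.28) and Clcn6 (-1.29). On that scale the median of all genes lay at -1.79. With estimated counts scaled to the same total the median was 0.029, beside -0.55 for all genes, and Ano1 (-0.006), Clic1 (-0.05) and Clcn6 (-0.04) were again negative. Leaving erythrocyte and all hemoglobin genes out of the scaling, an alternative chosen after the data were seen, gave a median of 0.77, beside 0.19 for all genes, and put Ano6 at -0.93, within 2-fold. Of the 22 genes with at least 0.8 TPM in VSMCs, 9 were higher in mcPCs (40.9%, beside 13.1% of all genes so filtered), and a limit of 4-fold left 1, Clic4, higher in VSMCs (3.13%, beside 5.72% of all genes). The causes were not tested. Of 29 genes named with values, 25 kept a ratio within their counting interval on TPM relative to the median gene, 25 on counts scaled without the erythrocyte list, 23 with a pseudocount of 10, 9 without erythrocyte and hemoglobin genes, 4 with totals set equal and 0 on TPM as deposited. The other 34 values of these 5 results stayed within 1.5 times, or for the median within 0.083 on the log2 scale. Genes of few reads, such as Best3, Cftr and Clcn1, are limited by depth.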
